A study of Homo sapiens with 11 samples.

Results

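The sites described here held a peak of HDAC2 and a peak of MTA2 but no peak of CHD4 or RBBP4 in SK-N-MC cells, a line established from a human Ewing sarcoma and driven by the EWSR1::FLI1 fusion. They were found by merging overlapping peaks of the 4 proteins, sharing at least 1 bp, into 28995 sites and keeping those with the required combination, so the members were chosen by the presence or absence of peaks of these 4 proteins and nothing about those peaks is a finding here. This gave 2399 sites, 8.27% of all merged sites and 25.2% (24.3 to 26.1) of the 9521 sites with both HDAC2 and MTA2. They held 2432 of the 20633 HDAC2 peaks (11.8%) and 2424 of the 13462 MTA2 peaks (18.0%), and 2345 of them had exactly 1 peak of each. The lists came from chromatin immunoprecipitation followed by sequencing (ChIP-seq) of wildtype cells grown in culture, with 1 sample and 1 list per target, the targets being the 4 proteins, FLI1 and the histone marks H3K4me3, H3K27ac, H3K4me1 and H3K27me3. CHD4 was pulled down through a Flag tag with antibody clone M2, in cells labelled wildtype, and the labels do not say how the tag was added. 2 input libraries were not analysed here. With 1 list for each target there was no replicate error and no test between conditions. Intervals in brackets are 95% Wilson intervals of a share, or Newcombe intervals of a difference between shares in percentage points, and they cover counting error over sites only. Read depth was unknown, and a site without a CHD4 or RBBP4 peak cannot be told from a site whose peak was missed for lack of depth. The same holds for the marks and FLI1. The H3K27me3 list held 3420 peaks, of median width 499 bp, and the FLI1 list 1561. The lists of H3K4me3, H3K27ac and H3K4me1 held 16089, 21500 and 31247. Below, a site with no histone mark is one without a listed peak of the 4 marks.

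HDAC2 is a histone deacetylase and MTA2 a scaffold protein that holds deacetylases in the nucleosome remodelling and deacetylase (NuRD) complex. In that complex CHD4 is the ATPase that moves nucleosomes and RBBP4 a histone-binding subunit. HDAC2 also works in the Sin3 and CoREST complexes, and RBBP4 is shared with Sin3 and Polycomb repressive complex 2, whereas MTA2 is known mainly from NuRD. NuRD assembles from a deacetylase part with HDAC and MTA proteins and a remodelling part with the ATPase. Relatives of the missing subunits, CHD3 for CHD4 and RBBP7 for RBBP4, were not among the targets. H3K4me3 marks promoters, H3K27ac active promoters and enhancers, H3K4me1 enhancers and H3K27me3 Polycomb-repressed chromatin, and the FLI1 antibody recognises the part of the fusion protein that binds DNA. Marker genes were read as a check of the labelled line: H3K4me3 and H3K27ac peaks lay within 1 kb of the start of 9 of 10 Ewing sarcoma markers (CD99 had neither), 0 of 6 blood, 1 of 6 epithelial (KRT18) and 0 of 5 muscle markers. None of these marker genes had an HDAC2 and MTA2 site at its start.

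Promoter sequences are shown because base composition differed between these sites and the other classes. The 300-base windows below, from RefSeq on GRCh38.p14, run from 250 bases before to 50 after the gene start, 5′ to 3′ on the strand of the gene. They belong to the first 6 of the 10 highest sites near a gene start whose site covered at least 50% of such a window. Capitals mark 8 short motifs searched on both strands: GGGCGG (the GC box bound by Sp and KLF factors), CCAAT, CCGGAAGT (an ETS site), TGACGTCA (a cAMP response element), TGACTCA (AP-1), CACGTG (an E-box), TATAAA and GGAAGGAA (a short GGAA repeat of the kind FLI1 binds). CCGGAAGT and GGAAGGAA share the letters GGAA.
ACACA promoter, chr17:37359047-37359346, minus strand: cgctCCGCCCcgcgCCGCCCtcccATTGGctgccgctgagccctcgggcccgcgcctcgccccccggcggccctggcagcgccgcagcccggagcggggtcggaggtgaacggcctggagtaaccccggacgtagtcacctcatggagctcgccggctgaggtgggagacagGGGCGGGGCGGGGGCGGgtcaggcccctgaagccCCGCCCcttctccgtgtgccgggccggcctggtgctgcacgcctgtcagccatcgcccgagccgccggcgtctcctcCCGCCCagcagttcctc
AMBN promoter, chr4:70592006-70592305, plus strand: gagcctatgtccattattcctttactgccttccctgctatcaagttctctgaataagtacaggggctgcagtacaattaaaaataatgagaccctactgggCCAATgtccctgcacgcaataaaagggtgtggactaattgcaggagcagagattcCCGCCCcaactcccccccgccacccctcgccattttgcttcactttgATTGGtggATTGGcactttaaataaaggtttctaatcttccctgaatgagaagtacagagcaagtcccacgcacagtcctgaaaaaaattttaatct
SLC25A29 promoter, chr14:100306395-100306694, minus strand: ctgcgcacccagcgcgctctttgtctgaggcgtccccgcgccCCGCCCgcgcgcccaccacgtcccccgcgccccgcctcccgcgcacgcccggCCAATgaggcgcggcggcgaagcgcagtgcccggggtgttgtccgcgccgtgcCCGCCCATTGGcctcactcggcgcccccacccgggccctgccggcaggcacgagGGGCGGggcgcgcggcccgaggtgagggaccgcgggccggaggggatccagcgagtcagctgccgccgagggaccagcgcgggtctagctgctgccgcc
CFAP97 promoter, chr4:185203951-185204250, minus strand: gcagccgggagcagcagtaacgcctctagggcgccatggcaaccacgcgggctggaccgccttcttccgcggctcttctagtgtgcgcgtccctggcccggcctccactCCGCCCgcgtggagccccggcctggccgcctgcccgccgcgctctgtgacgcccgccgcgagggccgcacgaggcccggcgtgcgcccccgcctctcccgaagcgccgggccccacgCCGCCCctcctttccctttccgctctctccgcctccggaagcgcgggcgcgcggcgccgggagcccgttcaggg
FAM168B promoter, chr2:131093411-131093710, minus strand: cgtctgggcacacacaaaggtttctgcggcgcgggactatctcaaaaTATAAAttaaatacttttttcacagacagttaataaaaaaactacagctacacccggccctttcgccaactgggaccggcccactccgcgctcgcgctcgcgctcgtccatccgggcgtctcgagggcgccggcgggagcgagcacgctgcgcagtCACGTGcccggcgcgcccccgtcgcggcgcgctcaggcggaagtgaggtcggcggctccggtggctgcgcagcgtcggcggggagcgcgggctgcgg
DUSP14 promoter, chr17:37489641-37489940, plus strand: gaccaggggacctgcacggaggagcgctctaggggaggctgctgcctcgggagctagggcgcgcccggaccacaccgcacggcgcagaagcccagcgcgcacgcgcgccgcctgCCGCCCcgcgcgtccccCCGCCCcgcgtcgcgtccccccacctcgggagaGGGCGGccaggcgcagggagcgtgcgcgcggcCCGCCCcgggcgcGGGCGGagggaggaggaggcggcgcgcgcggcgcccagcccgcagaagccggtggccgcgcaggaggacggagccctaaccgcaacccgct
The ACACA, SLC25A29, CFAP97 and DUSP14 windows were 77.3%, 80%, 77.7% and 81% G and C, held 36, 47, 45 and 49 CpG dinucleotides and each contained GGGCGG. FAM168B reached 65.7% with 43 CpG and had an E-box and a TATAAA but no GGGCGG. AMBN, a tooth enamel gene whose start carried none of the 4 histone marks, had 45.7% and 5 CpG, with CCAAT and GGGCGG in its window. ACACA encodes acetyl-CoA carboxylase, the first committed enzyme of fatty acid synthesis, and DUSP14 a phosphatase of MAP kinases.

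At gene starts the sites lay on promoters richer in G and C than those of the classes compared. A start of a protein-coding gene was taken from the RefSeq promoter table for 15843 of 20056 genes, with 22199 windows in all. Sites covered at least 50% of 878 windows of 760 genes, whose median G and C content was 72.3% (quartiles 66.3 and 76.7), with a median of 36 CpG. The median was 69.2% at promoters with HDAC2, MTA2 and RBBP4, 68.7% at promoters with all 4 proteins and 63.7% at promoters with HDAC2 and RBBP4 but no MTA2. Promoters under HDAC2 alone and under MTA2 alone had medians of 69% and 69.3%. The 8620 promoters at least 50% covered by H3K4me3 had a median of 67%, and all 22199 had 62.3%. The median of the HDAC2 and MTA2 promoters thus lay above each of these sets. It was 73% in the 265 windows with H3K27ac over at least 50% of their length and 72% in the 613 others.

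Among H3K4me3 promoters the share under an HDAC2 and MTA2 site climbed over every step of G and C content, against 7.63% of all of them. It was 1.55% (0.752 to 3.16) below 50% G and C, 2.92% from 50 to 60%, 5.70% from 60 to 70%, 12.3% from 70 to 80% and 16.9% (13.3 to 21.2) of the 344 promoters at 80% or more. Sites with HDAC2 and RBBP4 took 7.30%, 11.9%, 11.4%, 5.43% and 2.03% of the same promoters. Sites with all 4 proteins took 6.19%, 6.78%, 7.10%, 11.3% and 5.81%, and sites with HDAC2, MTA2 and RBBP4 1.33%, 4.82%, 8.05%, 10.5% and 5.23%. Sites with HDAC2 alone took 4.87%, 9.32%, 9.84%, 13.5% and 10.8% (7.90 to 14.5), and sites with MTA2 alone 0.221%, 3.23%, 3.70%, 4.67% and 6.98% (4.73 to 10.2). The climb over every step was thus shared with MTA2 alone, and not with the other 4 classes. In the most GC-rich promoters the interval of the HDAC2 and MTA2 sites lay above those of all these classes except HDAC2 alone, with which it overlapped.

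**Figure D1:**
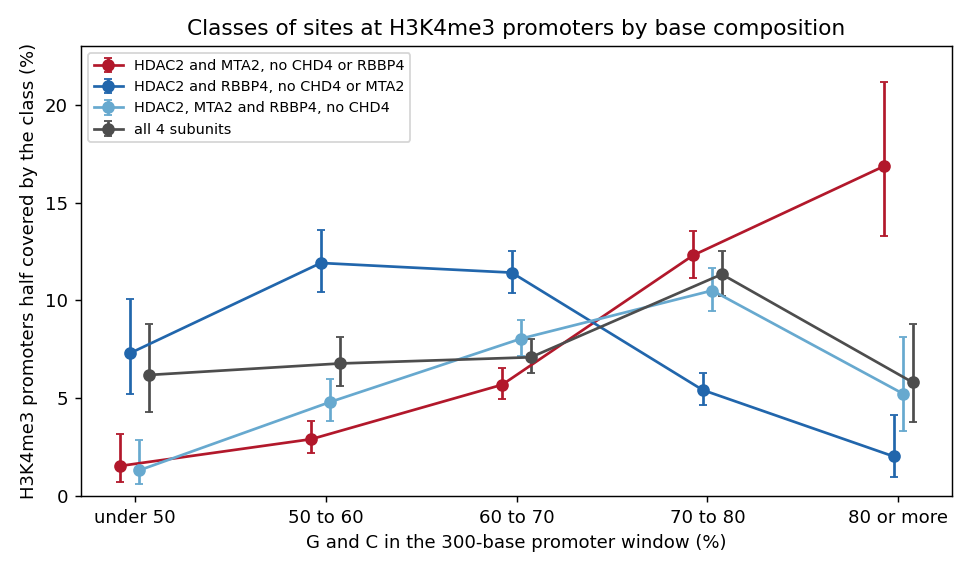
Share of H3K4me3 promoter windows at least 50% covered by a site of each class (vertical axis, %) by the G and C content of the window (horizontal axis, %), with 95% Wilson intervals. The red points of HDAC2 and MTA2 sites climb from 1.55% to 16.9%, while the dark blue points of HDAC2 and RBBP4 sites end at 2.03%.

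GGGCGG occurred in 86.0% (83.5 to 88.1) of the 878 promoters under HDAC2 and MTA2, against 82.0% with RBBP4 added, 76.1% with all 4 proteins, 67% with HDAC2 and RBBP4, 83.2% (79.9 to 86.1) with MTA2 alone, 77.4% with HDAC2 alone, 73.3% of H3K4me3 promoters and 56.3% of all windows. The motif is itself made of G and C: it occurred in 93.7% of the 5742 windows with 70% or more G and C. TATAAA was found in 3.30% (2.31 to 4.70) of the promoters under HDAC2 and MTA2, against 9.47% of all windows and 4.42% of H3K4me3 promoters, the second inside its interval. CCGGAAGT occurred in 7.40% (5.85 to 9.33), against 8.10% with HDAC2, MTA2 and RBBP4, 3.51% with all 4 proteins, 13% of HDAC2 and RBBP4 promoters, 9.64% of H3K4me3 promoters and 5.34% of all windows. CCAAT was present in 32.0% (29.0 to 35.2), TGACGTCA in 3.30% (2.31 to 4.70) and TGACTCA in 1.82% (1.12 to 2.94). The shares of H3K4me3 promoters, 31.4%, 3.23% and 2.15%, all lay inside these intervals, and those of all windows were 34.7%, 2.26% and 4.01%. CACGTG was present in 12.2% (10.2 to 14.5), against 12.4% with HDAC2, MTA2 and RBBP4, 12.8% with HDAC2 and RBBP4, 12.5% with MTA2 alone, 8.94% with all 4 proteins, 9.99% of H3K4me3 promoters and 8.34% of all windows. GGAAGGAA was found in 2.16% (1.39 to 3.36), against 3.31% of H3K4me3 promoters, inside this interval, and 3.70% of all windows. A match to these letters is a description of the window and not a binding site.

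The class split into 1023 sites within 1 kb of a gene start (42.6%, 40.7 to 44.6) and 1376 distal sites, and for the 4213 genes with no entry in the promoter table either annotated end stood in for the start. Over all merged sites 36.0% were near a start. The share was 65.9% for sites with HDAC2, MTA2 and RBBP4, 77.6% for HDAC2 and RBBP4, 50.9% for HDAC2 alone, 34.2% for MTA2 alone and 21.4% for all 4 proteins, so sites with HDAC2 and MTA2 lay at gene starts more often than sites with all 4 by 21.2 points (18.9 to 23.5). A start lay inside 826 of the sites (34.4%), 317 sites (13.2%) were 1 to 10 kb away, 695 (29.0%) 10 to 100 kb and 364 (15.2%) farther. Over the 28945 merged sites with a measured distance these shares were 21.6%, 13.8%, 31.3% and 18.9%. Of the distal sites, 725 (52.7%) lay inside a protein-coding gene (50.0 to 55.3), against 51.7% (47.0 to 56.4) with HDAC2, MTA2 and RBBP4, 48.7% with HDAC2 and RBBP4, 46.8% with all 4 proteins and 48.2% of all merged distal sites.

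Over all 2399 sites H3K4me3 was found at 48.0% (46.0 to 50.0), H3K27ac at 50.3% (48.3 to 52.3), H3K4me1 at 30.8% (28.9 to 32.6) and no histone mark at 18.3% (16.8 to 19.9), against 41.6%, 45.2%, 27.9% and 26.0% of all merged sites. Since the marks follow the distance to gene starts, they were described separately in the 2 places.

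Near gene starts nearly all of the sites carried the promoter mark, and fewer carried acetylation than did sites of the 2 classes with HDAC2, MTA2 and RBBP4, with or without CHD4. H3K4me3 overlapped 94.8% (93.3 to 96) of the 1023 sites, against 98.0% with HDAC2, MTA2 and RBBP4, 97.9% with HDAC2 and RBBP4, 91.8% with all 4 proteins and 91.7% of all merged sites near starts. The difference was -3.15 points (-4.86 to -1.46) from HDAC2, MTA2 and RBBP4, -3.09 points (-4.75 to -1.57) from HDAC2 and RBBP4 and 2.98 points (0.830 to 5.15) from all 4 proteins. H3K27ac overlapped 69.3% (66.4 to 72.1), against 85.4% with all 4 proteins, 82.3% with HDAC2, MTA2 and RBBP4, 70.3% with HDAC2 and RBBP4, 67.6% of the 170 sites with CHD4, HDAC2 and MTA2, 53.7% with HDAC2 alone and 63.4% of all merged sites near starts. The H3K27ac difference was -16.1 points (-19.6 to -12.5) from sites of all 4 proteins and -13 points (-16.8 to -9.14) from sites with RBBP4 added. The differences from HDAC2 and RBBP4 sites, -0.981 points (-4.76 to 2.77), and from CHD4, HDAC2 and MTA2 sites, 1.66 points (-5.53 to 9.51), had intervals across 0. H3K4me3 without H3K27ac was found at 274 of the sites, 26.8% (24.2 to 29.6), below the 30.4% of all merged sites near starts. It was 11.3% with all 4 proteins, 16.2% with HDAC2, MTA2 and RBBP4, 27.9% with HDAC2 and RBBP4 and 40.3% with HDAC2 alone. The overlapping H3K27ac peaks had a median fold enrichment of 9.97, against 10.0 with HDAC2, MTA2 and RBBP4, 10.3 at sites with all 4 proteins and 9.55 over all merged sites near starts, fold enrichment being the authors' peak height over local background. H3K4me1 was found at 3.71% of the sites near starts, against 3.20% of all merged sites there, H3K27me3 at 1.27% against 0.805%, FLI1 at 1.08% against 1.01% and no mark at 2.74% against 5.19%.

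**Figure D2:**
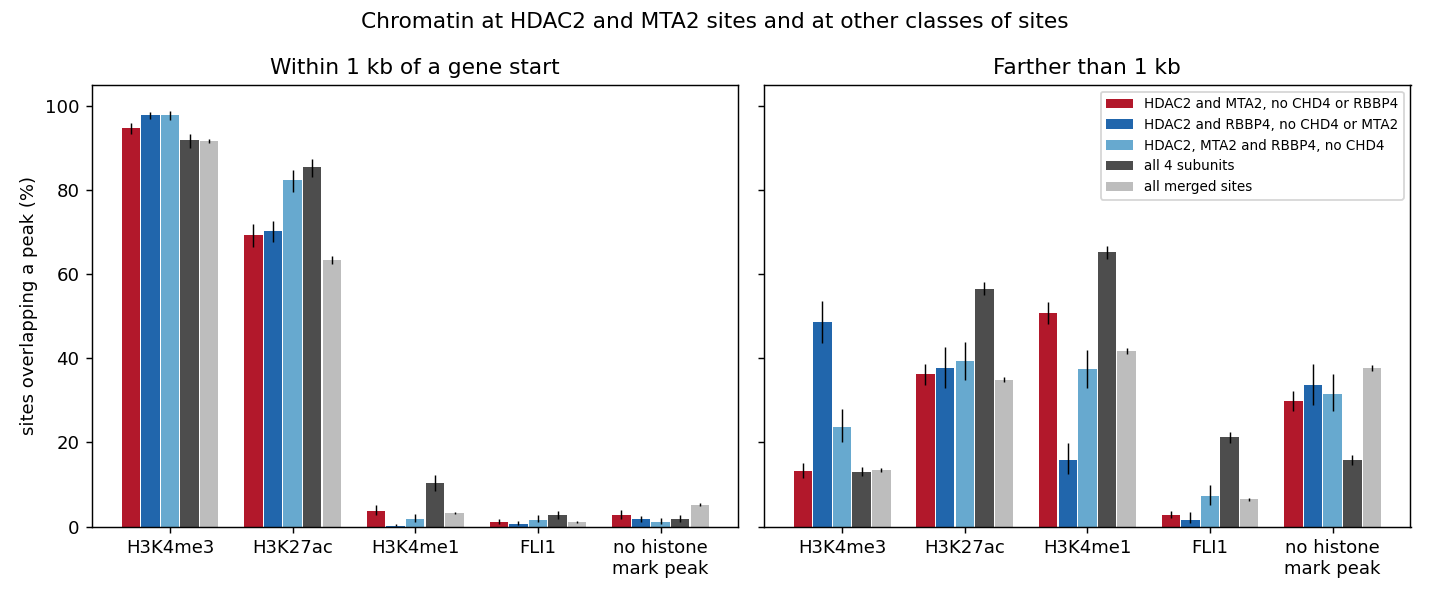
Share of sites (vertical axis, %) overlapping each mark or FLI1, or none of the 4 histone marks, within 1 kb of a gene start (left) and farther away (right), with 95% Wilson intervals. Near starts HDAC2 and MTA2 sites, in red, reach 94.8% for H3K4me3 and 69.3% for H3K27ac, and away from starts 50.9% for H3K4me1 and 2.69% for FLI1.

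Away from gene starts H3K4me1 was the mark that most sites touched, and FLI1 peaks were fewer than at sites with RBBP4 and MTA2. H3K4me1 overlapped 50.9% (48.2 to 53.5) of the 1376 distal sites, H3K27ac 36.2% (33.7 to 38.8), H3K4me3 13.2% (11.5 to 15.0) and no histone mark 29.9% (27.5 to 32.3). Over all merged distal sites these shares were 41.8%, 35.0%, 13.5% and 37.8%. Distal sites with all 4 proteins had H3K4me1 at 65.2%, H3K27ac at 56.6%, H3K4me3 at 13.1% and no mark at 15.8%. Those with HDAC2, MTA2 and RBBP4 had 37.4%, 39.3%, 23.8% and 31.6%, and those with HDAC2 and RBBP4 15.9%, 37.6%, 48.7% and 33.6%. The H3K4me1 difference of the HDAC2 and MTA2 sites was -14.3 points (-17.4 to -11.3) from sites with all 4 proteins, 13.5 points (8.11 to 18.6) from those with HDAC2, MTA2 and RBBP4 and 35.0 points (30.2 to 39.3) from those with HDAC2 and RBBP4. For H3K27ac and for no mark the intervals of the differences from the last 2 classes crossed 0. These shares depend on how much of a site a peak must cover. With the midpoint of the site inside the peak, H3K4me1 was at 19.9% of the 1376 sites, H3K27ac at 22.4% and no mark at 58.6%, and with at least 50% of the site covered they were 23.5%, 23.6% and 55.6%, so H3K4me1 no longer had the highest share. FLI1 overlapped 37 distal HDAC2 and MTA2 sites, 2.69% (1.96 to 3.68), against 7.16% with HDAC2, MTA2 and RBBP4, 21.2% with all 4 proteins and 6.48% of all merged distal sites. It was rarer still at distal sites with HDAC2 alone, 0.458%, a difference of 2.23 points (1.45 to 3.24), and was 1.61% with HDAC2 and RBBP4 (1.08 points, -0.923 to 2.40) and 4.26% with MTA2 alone. H3K4me1 as the sole mark was found at 400 of the sites (29.1%), against 25.1% of distal sites with all 4 proteins, 23.3% with HDAC2, MTA2 and RBBP4, 26.6% with MTA2 alone and 21.6% of all merged distal sites. H3K27me3 was found at 4 of the sites, 0.291% against 0.140% of all merged distal sites.

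The length of a site moved with the class: the median was 455.5 bp among distal HDAC2 and MTA2 sites and 745 bp among those with all 4 proteins. Marks were therefore also read in stretches of 1 length, 200 or 2000 bp in all, centred on the highest HDAC2 summit. This choice was made after the widths were seen. For marks and FLI1, "within 200 bp" and "within 2000 bp" below mean inside these stretches. Within 200 bp H3K4me1 covered 32.3% of distal HDAC2 and MTA2 sites, against 18.0% with all 4 proteins, 15.9% with HDAC2, MTA2 and RBBP4 and 21.4% of all distal sites with HDAC2, which turned the difference to +14.3 points (11.6 to 17.1). Within 2000 bp it was 68.5%, against 81.6% with all 4 and 62.8% of all, or -13.1 points (-15.9 to -10.4). The share without a histone mark was 45.3% within 200 bp, against 46.1% with all 4 and 48.6% of all, with an interval of the difference across 0 (-3.83 to 2.29 points), and within 2000 bp it was 17.7% against 8.23% (20.4% of all).

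H3K27ac and FLI1 had the same direction against all 4 proteins in the 200 bp, the whole site and the 2000 bp. In the 200 bp stretch H3K27ac was found at 28.9% of distal HDAC2 and MTA2 sites, against 41.5% with all 4 proteins. It was 29.3% with HDAC2, MTA2 and RBBP4 and 30.7% of all distal sites with HDAC2. In the 2000 bp stretch H3K27ac was found at 41.0% of HDAC2 and MTA2 sites against 59.0% with all 4 (43.9% of all). FLI1 was found at 2.69% within 200 bp, against 19.5% with all 4 (7.69% of all), and at 3.05% against 21.4% within 2000 bp (8.77% of all). At gene starts H3K27ac within 200 bp covered 57.7% of HDAC2 and MTA2 sites, against 69.4% with all 4 proteins and 50.6% with CHD4, HDAC2 and MTA2 (56.8% of all sites near starts with HDAC2), and H3K4me3 covered 90.7% against 83.6% (90.7% of all). Distal sites with CHD4, HDAC2 and MTA2 but no RBBP4 had H3K4me1 at 30.2%, FLI1 at 4.58% and H3K27ac at 41.2% within 200 bp. The H3K27ac difference of HDAC2 and MTA2 sites from these was -12.3 points (-16.5 to -8.03).

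**Figure D3:**
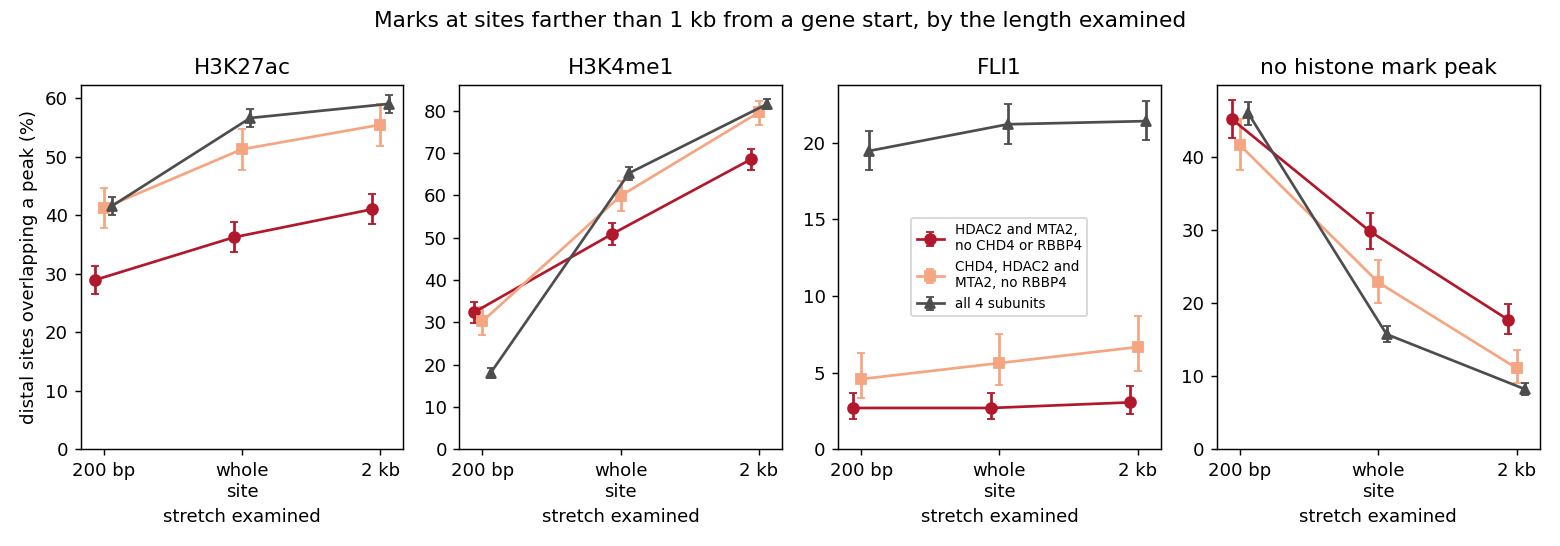
Share of distal sites (vertical axis, %) overlapping H3K27ac, H3K4me1, FLI1 or no histone mark when 200 bp around the HDAC2 summit, the whole site or 2 kb is examined, with 95% Wilson intervals. For H3K4me1 the red line of HDAC2 and MTA2 sites starts above the grey line of all 4 proteins (32.3% against 18.0%) and ends below it (68.5% against 81.6%), while for FLI1 it lies at 2.69%, 2.69% and 3.05%.

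Since sites with all 4 proteins also had taller HDAC2 peaks, the same shares within 200 bp were read in 5 equal groups of the HDAC2 list by fold enrichment. Within these groups the shares over all HDAC2 sites and over other classes were not counted. The values therefore do not tell which of the 2 classes departs from HDAC2 sites of like height. In the tallest group FLI1 was found at 13 of 368 distal HDAC2 and MTA2 sites, 3.53% (2.08 to 5.95), against 31.4% (29.2 to 33.8) of 1566 with all 4 proteins. In that group H3K27ac was found at 18.5% against 37.0% and H3K4me1 at 22.0% against 11%. In the lowest group the intervals of both classes overlapped for H3K27ac (40.9%, 33.9 to 48.3, against 48.8%, 43.6 to 54.1) and H3K4me1 (39.8%, 32.8 to 47.1, against 32.3%, 27.5 to 37.4). At gene starts the H3K27ac shares differed most in the tallest group, 42.7% (34.8 to 50.9) of 143 sites against 76.1% (70.2 to 81.1) of 234, and were 61.3% and 58.3% in the lowest.

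The heights of HDAC2 and MTA2 themselves were those of ordinary peaks in their lists, and since the rule used these peaks the heights are given as a description. The median HDAC2 fold enrichment was 5.14 (quartiles 4.30 and 6.26) at the 2399 sites, against 5.83 at sites with all 4 proteins and 5.09 over all merged sites with HDAC2. The median MTA2 fold enrichment was 6.61 (quartiles 5.50 and 8.08), against 7.0 with all 4 and 6.68 over all merged sites with MTA2. Near gene starts HDAC2 stood lower than at distal sites, with medians of 4.80 and 5.44, whereas MTA2 had 6.61 and 6.60. MTA2 therefore ranked higher in its list than HDAC2 in its own at 56.3% (53.2 to 59.3) of sites near starts and at 41.5% (38.9 to 44.1) of distal sites. 33 sites were in the top 10% of both lists. Within the class HDAC2 was tallest at distal sites without a histone mark (median 5.80, n = 411) and lowest at starts with H3K4me3 and H3K27ac (4.72, n = 696), and the MTA2 medians of these 2 sets were 6.78 and 6.63.

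The summits of the 2 proteins lay at different positions of a promoter, which is given as a description since the rule used these peaks. At the 845 sites within 1 kb of a start in the promoter table, the median MTA2 summit lay at -80 bp from the start (quartiles -166 and -7) and 22.5% of MTA2 summits were downstream. The median HDAC2 summit lay at -39 bp (quartiles -239 and 122), with 44.7% downstream. MTA2 summits formed 1 group, with 49.2% in the 150 bp before the start, where 16.4% of HDAC2 summits lay. HDAC2 summits formed a group on either side, most frequent from -250 to -200 bp (8.52%) and from 50 to 100 bp (9.47%), with a low of 4.38% from -100 to -50 bp, the bin where MTA2 reached 18.6%. The 717 sites with HDAC2, MTA2 and RBBP4 had nearly the same layout, with 48.5% of MTA2 summits in those 150 bp, and at the 881 sites with all 4 proteins the share was 35.2%. HDAC2 again had a group on either side in both classes. HDAC2 summits of the 1123 sites with HDAC2 and RBBP4 but no MTA2 lay at a median of 60 bp, 62.7% of them downstream. They too formed a group on either side, most frequent from -200 to -150 bp (8.28%) and from 50 to 100 bp (13.1%). Between these groups the low was again from -100 to -50 bp (4.01%), so this layout of HDAC2 was also seen without an MTA2 peak. Starts on both strands lay near 28.6% of the 845 HDAC2 and MTA2 sites, and the 603 with starts on 1 strand gave medians of -84 bp for MTA2 and -37 bp for HDAC2.

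**Figure D4:**
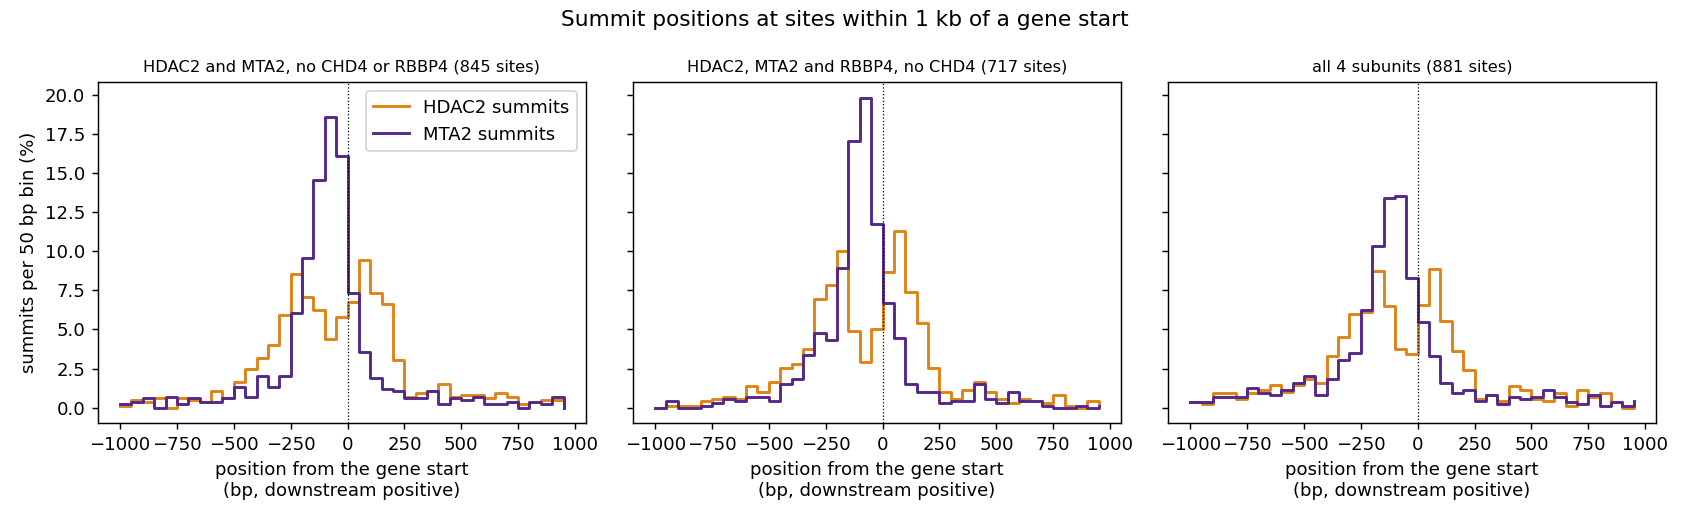
Share of summits in each 50 bp bin (vertical axis, %) by position from the gene start (horizontal axis, bp, downstream positive) at 845 HDAC2 and MTA2 sites (left), 717 sites with HDAC2, MTA2 and RBBP4 (middle) and 881 sites with all 4 proteins (right). MTA2 summits, in purple, peak from -100 to -50 bp, at 18.6%, 19.8% and 13.5%, where HDAC2 summits, in orange, are at 4.38%, 2.93% and 3.75% between a group on each side.

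The distance between the 2 summits differed likewise. It had a median of 131 bp near gene starts and 58 bp at distal sites, with 17.2% and 45.1% of sites within 50 bp. The distance is a description too, since 2 summits of a site cannot lie farther apart than the site is long. The median length of the HDAC2 and MTA2 sites was 629 bp near starts and 455.5 bp at distal sites. Sites with all 4 proteins had 111 bp near starts and 58 bp at distal sites, and those with HDAC2, MTA2 and RBBP4 127 and 53 bp.

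The nearest CHD4 or RBBP4 peak was at a median of 31.1 kb, 170 sites (7.09%) had one within 1 kb and 17 within 100 bp. Just inside the rule were the sites nearest to UBXN4, TBL1XR1, JMY, SLC27A4 and KLF15, with a CHD4 or RBBP4 peak starting 2, 7, 22, 23 and 27 bp beyond the site. Just outside were the sites near ATP2A3, whose CHD4 peak had a −log10 p of 9.04, and near MLPH and HBP1, whose RBBP4 peaks had 7.02 and 7.06. The smallest −log10 p deposited was 9.0 for CHD4 and 7.01 for RBBP4. Of the 1270 sites with HDAC2, MTA2 and RBBP4, 92 rested on an RBBP4 peak below 9. The H3K4me3 peak under a site near a start also held a CHD4 or RBBP4 peak elsewhere in 87 of 970 cases (8.97%). 1117 sites (46.6%) lay within 100 kb of a site with all 4 proteins. These distances, and the share of H3K4me3 peaks with CHD4 or RBBP4, were read for HDAC2 and MTA2 sites only. Without another class beside them they describe place only.

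The tallest sites near gene starts were those of TPBGL, ACACA, AMBN, SLC25A29, ENTPD4, CFAP97, FAM168B, DUSP14, PIM3 and GLI4, by mean rank of both heights. Their fold enrichments ran from 7.01 to 10.2 for HDAC2 and from 11 to 16.6 for MTA2. H3K4me3 covered 9 of the 10 and H3K27ac 7. The ACACA site (chr17:37358448-37359626 of GRCh38, over the gene start) had 9.32 for HDAC2 and 13.7 for MTA2, with summits 47 bp apart and the nearest CHD4 or RBBP4 peak 315 kb away. The PIM3 site (chr22:49960014-49962599), at the start of a serine/threonine kinase gene, was the longest of the 2399 at 2586 bp, with 7.01 and 15.3. The TPBGL site carried H3K27me3 beside H3K4me3 and no H3K27ac. The nearest CHD4 or RBBP4 peak of these 10 sites was 14 kb away at GLI4 and 445 kb away at DUSP14.

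The tallest distal sites were nearest to DCLK1, TSPAN2, GRIK2, SEMA3D, LMO4, SOX11, PLXNA2, TSPAN9, MIB1 and CFAP46. The nearest gene is a label of place, since which gene a distal site acts on was not measured. H3K4me1 covered 5 of them, H3K27ac 1, FLI1 3 and H3K4me3 none, and 5 had no histone mark. The site inside SEMA3D (chr7:85049308-85050374) had the highest HDAC2 fold enrichment of the 10, 13.8, beside 11.4 for MTA2, and SEMA3D encodes a secreted guidance cue. The site 82.8 kb from SOX11, a transcription factor of neural progenitors (chr2:5608960-5609621), had 11.4 for both HDAC2 and MTA2 and overlapped FLI1 and H3K4me1. The site inside PLXNA2 (chr1:208207204-208208138), a semaphorin receptor gene, had 10.1 and 11.6 and carried H3K27ac, H3K4me1 and FLI1. The DCLK1 site (chr13:36157437-36157842) had 9.69 and 12.9, no mark, and an RBBP4 peak 5.90 kb away.

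FLI1 peaks that did meet HDAC2 and MTA2 sites had low −log10 p values. FLI1 overlapped 48 of the 2399 sites (2.00%, 1.51 to 2.64), against 17.2% of sites with all 4 proteins, 0.463% with HDAC2 alone and 4.51% of all merged sites. The FLI1 peaks concerned had a median −log10 p of 13.2 (quartiles 10.6 and 18.2, n = 48), against 25.7 (14.6 and 47.5, n = 901) at sites with all 4 proteins and 19.0 over the whole list. The 10 highest HDAC2 and MTA2 sites with FLI1 were nearest to TSPAN2, SOX11, PLXNA2, TLL1, CPQ, TFAP2B, GPR21, TRAPPC9, VRK1 and CD83, all of them distal. Of these, 6 carried H3K27ac and 6 H3K4me1. H3K27me3 overlapped 17 sites (0.709%, 0.443 to 1.13), against 0.0814% of sites with all 4 proteins, 0.898% with HDAC2 alone and 0.379% of all merged sites. Of the 17, 16 also carried H3K4me3, against 82 of all 110 merged sites with H3K27me3, 42 of 64 with HDAC2 alone and 4 of 4 with all 4 proteins. The 10 highest HDAC2 and MTA2 sites with H3K27me3 were nearest to TPBGL, NOTUM, PIK3CD, LRRFIP1, RRAGC, ADCY5, WNT9A, SEMA7A, HECW2 and CHST2, with H3K4me3 at 9 and H3K27ac at 0. WNT9A is a Wnt ligand and NOTUM an enzyme that inactivates Wnt ligands.

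The genes at these sites were described with 18 lists of gene groups. A site lay within 1 kb of the start of 1122 of 20056 protein-coding genes (5.59%), and of 9.46% of the 11655 genes with H3K4me3 there. Of the 575 genes of the lists 51 had one, 8.87% (6.81 to 11.5). Lists of genes that nearly all carry H3K4me3 compare with the 9.46%. No test was made over these lists.

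Of 32 Polycomb subunits 8 had an HDAC2 and MTA2 site at the start, 25% (13.3 to 42.1), against 5.59% of all genes and 9.46% of those with H3K4me3. They were SUZ12, EED and AEBP2 of Polycomb repressive complex 2, and RING1, BMI1, CBX8, KDM2B and YAF2 of complex 1. All 8 sites carried H3K4me3 and 7 H3K27ac, with no CHD4 or RBBP4 peak within 1 kb of any. A site with HDAC2, MTA2 and RBBP4 lay at 5 of the 32 starts (4.89% of all genes), one with all 4 proteins at 3 (5.68%) and one with HDAC2 and RBBP4 at 2 (7.48%). For these 3 classes the share among genes with H3K4me3 was not counted. AEBP2 (chr12:19439137-19440642) had 6.46 for HDAC2 and 10.1 for MTA2, BMI1 (chr10:22320875-22321306) 7.15 and 7.07, and KDM2B (chr12:121467298-121467872), which binds unmethylated CpG, 7.61 and 6.25. The other 5 ran from 4.24 to 5.59 for HDAC2.

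NuRD genes themselves had such sites at 4 of 15, 26.7% (10.9 to 52.0). They were MTA3, a relative of MTA2, CHD3, a relative of CHD4, GATAD2B and MBD2, the last a methyl-CpG-binding subunit. MTA3 had 6.36 for HDAC2 and 8.19 for MTA2, with H3K4me3, H3K27ac and H3K4me1. At CHD3, GATAD2B and MBD2 a CHD4 or RBBP4 peak lay 0.856, 0.292 and 0.724 kb away, and the CHD3 and MBD2 sites had no H3K4me3.

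Other lists lay nearer to the background. DNA damage genes had 5 of 35 (among them MDM4, RPA1 and TP53BP1), heat shock and folding genes 5 of 33 (BAG3, DNAJB1, HSF1, HSPA1B and PDIA6) and translation factors 5 of 37 (EEF1B2, EIF3A, EIF4A3, EIF4G1 and EIF4G2). More of the 35 DNA damage genes had a site with HDAC2, MTA2 and RBBP4 (11, against 4.89% of all genes) or with HDAC2 and RBBP4 (9, against 7.48%). A site with all 4 proteins lay at 4 of them (5.68% of all genes). EIF4A3, an RNA helicase of the exon junction complex, had the highest MTA2 fold enrichment of the list genes, 14.5, with 3.62 for HDAC2. HSF1, the master regulator of the heat shock response, had 8.25 and 8.14. HSPA1B has a near-identical copy, HSPA1A, so its peaks are uncertain. Cholesterol genes had 3 of 25 (among them IDI1), with 14 for MTA2 and 3.90 for HDAC2 at IDI1, and cell cycle genes 3 of 40 (CCND3, CDK2 and CDK4). Of these 40 cell cycle genes, 15 had a site with HDAC2 and RBBP4, 4 one with HDAC2, MTA2 and RBBP4 and 1 one with all 4 proteins. HOX genes had 3 of 39 (HOXA13, HOXB9 and HOXC12), against 14 of 39 with a site of all 4 proteins at the start (5.68% of all genes). None of 40 ribosomal protein genes had an HDAC2 and MTA2 site, 0% (0 to 8.76), although 39 carried H3K4me3. None of 30 genes activated by the fusion had one, 0% (0 to 11.4). This interval holds both the 5.59% of all genes and the 9.46% of genes with H3K4me3. A site with all 4 proteins lay at 9 of these 30 (5.68% of all genes). One with HDAC2 and RBBP4 lay at 5 (7.48%) and one with HDAC2, MTA2 and RBBP4 at 3 (4.89%). Of 25 genes repressed by the fusion, CDH11, FOXO1 and PHLDA1 had an HDAC2 and MTA2 site. FOXO1, a transcription factor that restrains growth, had 9.12 for HDAC2 and 6.96 for MTA2, with a CHD4 or RBBP4 peak 0.261 kb away. Splicing factors had 3 of 39 (PRPF3, SRSF3 and SRSF7), growth-induced genes 3 of 35 (JUNB, KLF10 and KLF2) and respiratory chain genes 2 of 35 (CYCS and NDUFS1, the second sharing its site with EEF1B2). A single gene each had a site among 31 proteasome subunits (PSMA7), 25 members of other HDAC complexes (ZMYM2), 27 stress response genes (EDEM1) and 43 histone genes (H3-3A).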

How the data were processed

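Peak lists of 9 targets in SK-N-MC were used, 1 sample each. The submitters' processing notes name GRCh38 and, as tools, bedtools 2.27.1, deepTools 3.2.1, SAMtools 1.9, BWA 0.7.17, FastQC 0.11.7 and Trimmomatic 0.36. Deposited peak names contain MACS2, with no version, control or pooling stated. The authors' lists give each peak a fold enrichment (a ratio), a −log10 p and a −log10 q as deposited, and these ranked and described peaks only inside their own list. The deposited score was not used. Read counts were not used here and depth is unknown.

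Peaks were merged with Python 3.11.15 code tested on simulated peaks, and a mark counted at a site from 1 bp of overlap on. Gene starts and promoter windows came from RefSeq (GRCh38.p14). For the 4213 genes without a promoter entry a gene end can count as a start. Of 576 genes in the 18 lists, 575 matched by symbol. The sites and lists were chosen with earlier results of these data known. Sites were named by rule: the 10 highest near starts, distal, with FLI1 and with H3K27me3, by mean rank of HDAC2 and MTA2 fold enrichment, and list genes with a site within 1 kb, of which some are not reported here. The examples at the threshold of the rule were named after their values were seen. Promoter windows overlap where a gene has several starts. Alternatives covered peak thresholds, overlap, summit distance and the window at starts.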

Additional observations from a re-analysis of the deposited data

How the results depend on the processing

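Of 51 alternative values of the 6 main results, 22 stayed within the interval or 1.5-fold range of the reported value and 29 moved. The number of sites was 1556 with the 13000 strongest peaks of each protein, against 2399. The share near a gene start was 46.9% with all 4 proteins at a −log10 p of at least 15, 45.6% with the 13000 strongest peaks, 36.5% with HDAC2 and MTA2 summits within 200 bp, 38.3% and 50.0% for windows of 200 and 5000 bp, 35.2% with the starts of the promoter table only and 35.7% without the Flag-CHD4 list. For H3K4me3, H3K27ac, H3K4me1 and FLI1, a −log10 p of at least 15 for the proteins gave 53.3%, 57.2%, 27.9% and 2.96%, and at least 50% of the site covered gave 43.4%, 34.4%, 13.9% and 0.792%. The midpoint of the site inside the peak gave 41.9%, 33.0% and 11.8% for the 3 histone marks, and close summits gave 41.2%, 46.7% and 34.5%. Without the Flag-CHD4 list H3K4me3, H3K4me1 and FLI1 were 40.3%, 36.0% and 2.81%. H3K4me3 was 51.4% with the 13000 strongest peaks. With mark peaks at a −log10 p of at least 15, H3K27ac, H3K4me1 and FLI1 were 47.2%, 26.0% and 0.667%. Leaving out weak RBBP4 peaks, or sites with a CHD4 or RBBP4 peak within 1000 bp, moved none of the 6. In the 200 bp centred on the HDAC2 summit, distal HDAC2 and MTA2 sites minus sites of all 4 proteins turned to 14.3 points for H3K4me1 and -0.776 points for no histone mark. The cause of these changes was not tested. The median G and C content of promoters ran from 71.3% to 73.0% and the GGGCGG share from 85.5% to 86.2% over 6 settings each. The table starts, the Flag-CHD4 list, the 200 and 2000 bp stretches and the alternatives for the distal shares were added after seeing the data. No paired analysis was possible because each target had 1 sample. Depth is unknown and limits the absence of CHD4 and RBBP4, which a deeper library could change at some of these sites.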

Other observations

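Among the distal sites, 60 (4.36%, 3.40 to 5.57) lay within 1 kb of the start of a long non-coding RNA gene, against 15.6% of distal sites with HDAC2 and RBBP4, 4.01% with all 4 proteins and 4.13% of all merged distal sites. H3K4me3 covered 61.7% of these 60 and 10.9% of the other distal HDAC2 and MTA2 sites. Over all merged distal sites the 2 shares were 51.7% and 11.8%, so the contrast was not particular to this class. They were 51.6% and 11.5% with all 4 proteins and 84.6% and 19.9% with HDAC2, MTA2 and RBBP4. Hairpins of 12 of 1562 microRNAs overlapped an HDAC2 and MTA2 site, among them MIR219A1, MIR1908, MIR2110, MIR3154 and MIR1199, chosen after their names were seen. Hairpins under all merged sites or other classes were not counted, so this number has no background and is a description only.

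The share of merged sites that held HDAC2 and MTA2 without CHD4 and RBBP4 varied between chromosomes. It was 11.2% (9.59 to 12.9) of 1363 sites on chromosome 17 and 10.6% (8.53 to 13.2) of 677 on chromosome 22, against 8.27% over all sites. On chromosome 5 it was 6.67% (5.48 to 8.08) of 1425 sites and on chromosome 6 7.03% (6.04 to 8.17) of 2205. The lowest share, 6.33% (4.35 to 9.11) of 411 on chromosome 21, had an interval that holds 8.27%. These chromosomes were picked from all of them for their high or low shares.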
